A study of Homo sapiens with 6 samples.

Results

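The 10 chemokine genes CXCL1, CXCL2, CXCL3, CXCL5, CXCL6, CXCL8, CXCL14, CXCL16, CCL20 and CCL28 were followed across 6 Affymetrix arrays of MCF10A, an established human mammary epithelial line that does not form tumours. They were chosen by gene name: every probe set whose only gene symbol in the probe annotation was one of these names was taken, which gave 19 of the 54613 probe sets tested, or 10 of 19775 genes. CXCL1, CXCL3, CXCL6, CXCL16 and CCL20 had 1 probe set each, CXCL8 had 2, and the other 4 genes had 3 each. Labels placed 3 arrays in a C/EBPbeta-2 group, named for a shorter isoform of the transcription factor C/EBPbeta made from the gene CEBPB. The other 3 arrays, of MCF10A cells alone, were the control. All cells were grown, per the labels, in medium with 5% horse serum, insulin at 10 µg/ml, the glucocorticoid hydrocortisone at 0.5 µg/ml, epidermal growth factor at 10 ng/ml and cholera toxin at 100 ng/ml, with no further treatment. How C/EBPbeta-2 was delivered, at what level, and whether the cells were 1 clone or a pool is not stated in any source used here. GEO's labels call the arrays of a group biological replicates without naming what separated them, so p-values measure only the spread between these samples, which may be technical.

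Chemokines are small secreted proteins that draw leukocytes along a gradient by binding receptors on their surface. CXCL1, CXCL2, CXCL3, CXCL5, CXCL6 and CXCL8 (interleukin-8) share an ELR motif before their paired cysteines. They attract neutrophils through CXCR2, and some of them, such as CXCL8, also through CXCR1. CCL20 attracts cells that carry CCR6, such as some T cells and dendritic cells. Epithelial cells make these chemokines when interleukin-1 or tumour necrosis factor activates NF-kappaB, and C/EBP factors are known partners of NF-kappaB at some of their promoters. CXCL14 and CXCL16 lack the ELR motif, and CCL28, a chemokine of mucosal surfaces and the lactating breast, binds CCR10 and CCR3. In the RefSeq gene order of chromosome 4, a run of 9 coding genes from CXCL8 to CXCL2 holds the 6 ELR chemokines of the set, with PF4V1, PF4 and PPBP between them.

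The promoters of the ELR chemokines and of CCL20 are shown because these genes are induced together by NF-kappaB in epithelium, so a reader can see which letters they share. The RefSeq promoter table (GRCh38.p14, 250 bases before to 50 after the start) held 9 of the 10 genes and not CXCL16. Each line gives bases -150 to -51 before the gene's start, 5′ to 3′ on the gene's own strand. Capitals mark matches on either strand to a loose NF-kappaB motif (GGG, any 5 bases, then CC, with overlapping matches allowed) or to TGANTCA, an AP-1 motif, which within these windows occurs in CXCL8.
CXCL1 (chr4:73869243-73869342, + strand): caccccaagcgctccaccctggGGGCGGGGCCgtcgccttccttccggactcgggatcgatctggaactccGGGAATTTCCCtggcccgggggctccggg
CXCL2 (chr4:74099246-74099345, - strand): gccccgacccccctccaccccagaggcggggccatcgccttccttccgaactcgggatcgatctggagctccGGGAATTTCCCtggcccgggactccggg
CXCL3 (chr4:74038740-74038839, - strand): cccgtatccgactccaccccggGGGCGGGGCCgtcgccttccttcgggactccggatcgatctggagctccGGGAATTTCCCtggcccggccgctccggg
CXCL5 (chr4:73998728-73998827, - strand): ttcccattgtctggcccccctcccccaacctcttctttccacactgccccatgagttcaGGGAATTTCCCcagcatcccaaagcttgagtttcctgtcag
CXCL6 (chr4:73836528-73836627, + strand): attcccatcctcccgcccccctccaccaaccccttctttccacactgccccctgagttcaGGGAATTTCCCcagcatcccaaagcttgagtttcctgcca
CXCL8 (chr4:73740419-73740518, + strand): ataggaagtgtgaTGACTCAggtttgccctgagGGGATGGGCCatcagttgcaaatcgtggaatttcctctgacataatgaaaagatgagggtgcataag
CCL20 (chr2:227813692-227813791, + strand): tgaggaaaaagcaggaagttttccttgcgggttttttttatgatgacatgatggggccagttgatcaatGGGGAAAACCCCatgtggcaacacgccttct
CXCL1, CXCL2, CXCL3, CXCL5 and CXCL6 all held GGGAATTTCC, with its first base at position -91 to -78. This exact string was found in 51 of 35116 promoters of the same length (0.145%), and it was picked after the matches were seen. The loose NF-kappaB motif itself was in 8 of the 9 members and in 58.7% of all promoters. The C/EBP motif TTGCNNAA was in 10.5% of all promoters and in CXCL2 alone among the 9, outside the window shown, as TTACGCAA at positions -188 to -181. TGANTCA was in 7.71% of promoters and in CXCL8 and CXCL14. Compared position by position without gaps, the windows of CXCL1 and CXCL3 were identical at 85 of 100 positions. The count was 47 for CXCL1 and CXCL2 and 27 for CXCL1 and CXCL5. Such a count falls when windows are offset, and GGGAATTTCC starts at -79 in CXCL1 and CXCL3 but at -78 in CXCL2. These counts therefore do not rank the genes by likeness. The CXCL8 promoter is known to hold adjoining C/EBP and NF-kappaB sites whose letters differ from both motifs searched. A match is a description of letters, and binding was not measured.

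No chemokine of the set passed the test of C/EBPbeta-2 against control. CCL20 and CXCL1 had the largest differences, log2 differences of -1.99 and -1.76, and in both genes all 3 C/EBPbeta-2 arrays read below all 3 control arrays. CXCL16 and 2 of the 3 CCL28 probe sets were also lower on every C/EBPbeta-2 array, by smaller amounts. CXCL8 and CXCL2 overlapped between groups, and CXCL5 and CXCL6 read low on every array. These values stand beside IL1B, a gene for a cytokine inducer of the family, and IL1R2, a decoy receptor of interleukin-1, which both rose in the same cells. With the replicate number as a block, neither of them was called. That block called 0 of all genes, and the numbers only name the arrays.

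Limma called 0 of the 19 probe sets at an adjusted p under 0.05, where it called 0.0659% of all probe sets, and 0 of the 10 genes, where it called 0.263% of all genes. At an unadjusted p under 0.05 there were 4 of the 19 probe sets, against 3.98% of all. The 4 were CXCL1, CCL20, CXCL16 and the CCL28 probe set 238750_at, all lower with C/EBPbeta-2. At their brightest probe sets 4 of the 10 genes were lower on every C/EBPbeta-2 array (background 4.01%) and 0 higher (background 4.62%). The groups did not overlap for 6 of the 19 probe sets, against 7.62% of all probe sets in either direction. Of these, 5 were lower with C/EBPbeta-2 (background 3.75%) and 1 higher (background 3.87%). By gene, at the brightest probe set, 8 of 10 differences were below 0, where 48.1% of all genes were, and the median log2 difference was -0.35 against 0.01 over all genes. With 3 arrays a group, an exact permutation test of a single gene cannot give a p below 0.1.

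**Figure D1:**
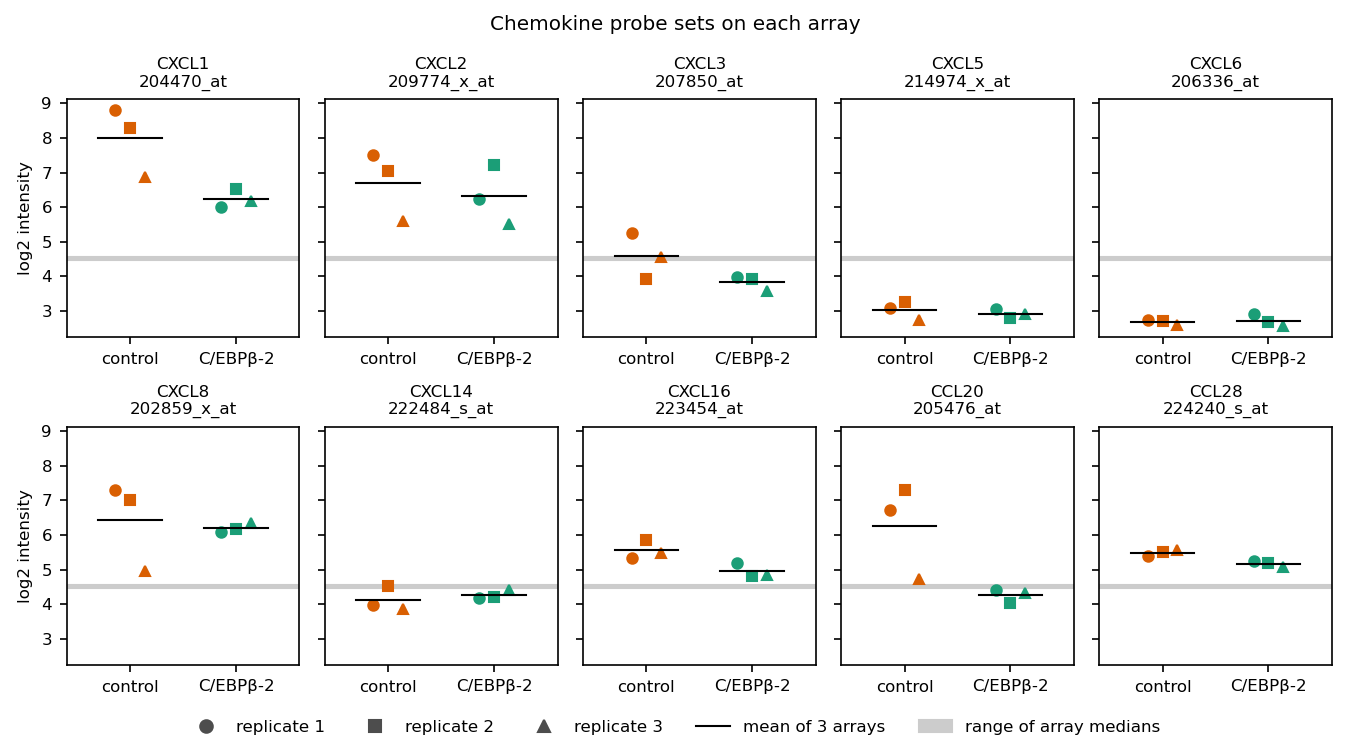
Log2 intensity of each chemokine's brightest probe set on each array (y axis), for 3 control and 3 C/EBPbeta-2 arrays (x axis); marker shapes are replicate numbers, black lines are group means, and the grey band is the range of the array medians, 4.46 to 4.56. CXCL1, CXCL16, CCL20 and CCL28 show no overlap between groups, and control replicate 3 is the lowest control array for CXCL1, CXCL2, CXCL8 and CCL20; heights are not comparable between panels.

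Among the neutrophil attractants, CXCL1, first described as a melanoma growth-stimulating activity, had the clearest difference. On control replicates 1 to 3 the log2 intensity of 204470_at was 8.82, 8.30 and 6.87, and C/EBPbeta-2 gave 6.001, 6.52 and 6.18 in the same order. Every C/EBPbeta-2 array was below every control array, and the control arrays spread more widely, with replicate 3 nearest to the C/EBPbeta-2 values. The means were 7.99 ± 1.01 in control and 6.24 ± 0.26 with C/EBPbeta-2 (SD, n = 3). The log2 difference of -1.76 (SE 0.49, 95% interval -2.93 to -0.59) is 3.38-fold lower, and its limma adjusted p was 0.704 over all probe sets and 0.481 over all genes. Across the alternatives tested this difference ranged from -2.32, without control replicate 3, to -1.35, without control replicate 1, and it was not called in any.

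CXCL3, a close paralog of CXCL1, read 5.24, 3.93 and 4.57 on control replicates 1 to 3 at probe set 207850_at. On C/EBPbeta-2 replicates 1 to 3 it read 3.99, 3.92 and 3.59. Control replicate 2 lay among the C/EBPbeta-2 values, so the groups overlapped, and all 3 C/EBPbeta-2 values were below the array medians of 4.46 to 4.56. The log2 difference was -0.75 (SE 0.34, 95% interval -1.56 to 0.06, limma adjusted p = 1.00), and it shrank to -0.42 without control replicate 1.

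CXCL2, another attractant of the same subgroup, read 7.50, 7.04 and 5.59 on control replicates 1 to 3 at its brightest probe set, 209774_x_at. It read 6.23, 7.23 and 5.51 on C/EBPbeta-2 replicates 1 to 3. The groups overlapped over most of their range, and replicate 3 was the lowest array in both. The difference of -0.39 (SE 0.61, 95% interval -1.84 to 1.06, limma adjusted p = 1.00) became 0.02 without C/EBPbeta-2 replicate 3 and -0.95 without control replicate 3. Names ending in _x_at mark probe sets that may bind related transcripts, and CXCL1, CXCL2 and CXCL3 are close paralogs, so 209774_x_at may read more than CXCL2. The other 2 CXCL2 probe sets, 230101_at and 1569203_at, stayed under the array medians throughout, with differences of 0.21 and 0.13.

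CXCL8, the best known neutrophil attractant, was read by 2 probe sets that disagreed in level and in size of difference. Their names end in _x_at and _s_at, so no CXCL8 probe set remained when such probe sets were left out. At 202859_x_at control replicates 1 to 3 read 7.29, 7.02 and 4.95, and C/EBPbeta-2 replicates 1 to 3 read 6.09, 6.16 and 6.36. The C/EBPbeta-2 arrays lay close together between control replicates 1 and 2 above and control replicate 3 below. The difference was -0.22 (SE 0.59, 95% interval -1.65 to 1.20, limma adjusted p = 1.00). Leaving out control replicate 1 turned it to 0.21, control replicate 2 to 0.08 and control replicate 3 to -0.96.

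At 211506_s_at, the second CXCL8 probe set, the control replicates in the same order read 6.13, 5.72 and 4.03 and the C/EBPbeta-2 replicates 4.30, 5.07 and 3.92. Here control replicate 3 fell inside the range of the C/EBPbeta-2 arrays, while the other control arrays lay above it. The difference was -0.87 (SE 0.58, 95% interval -2.26 to 0.53, limma adjusted p = 1.00), which kept its sign whichever array was left out (-1.50 to -0.45). The intervals of both probe sets allow a lower as well as a higher level of CXCL8 with C/EBPbeta-2.

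CXCL5 and CXCL6, which attract neutrophils in many epithelia, read low at all 4 of their probe sets. The 3 CXCL5 probe sets ranged from 2.48 to 3.25 over all arrays and the CXCL6 probe set from 2.56 to 2.90, all below every array median. No detection calls were used here, so these values have no stated background, and a difference at this level cannot be read as a change in transcript. The differences lay between -0.11 and 0.05 (limma adjusted p = 1.00 each). In all, 10 of the 19 chemokine probe sets lay below each array's own median on all 6 arrays, and 5 lay above it on all 6.

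**Figure D2:**
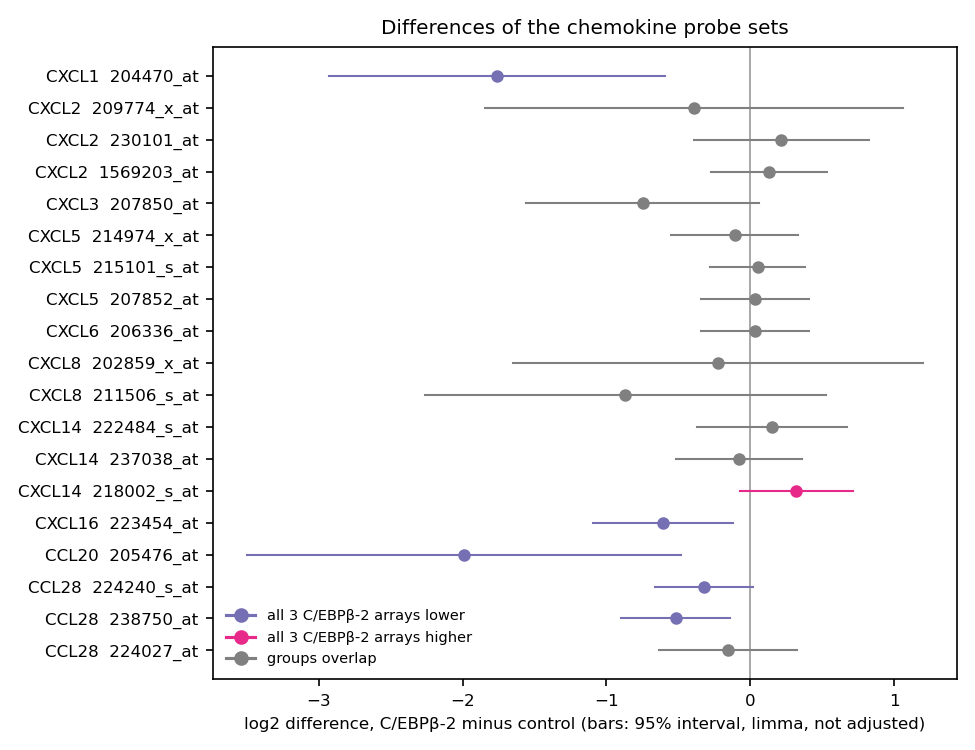
Log2 difference, C/EBPbeta-2 minus control (x axis), for each of the 19 chemokine probe sets (rows, brightest first within a gene); points are limma estimates over 3 arrays a group and bars their 95% intervals, not adjusted for multiple tests. Purple marks the 5 probe sets with every C/EBPbeta-2 array below every control array, pink the 1 with the reverse, and grey those that overlap; the widest intervals are those of CCL20, CXCL2 209774_x_at and the 2 CXCL8 probe sets.

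CCL20 read 6.73, 7.29 and 4.72 (log2 intensity) on control replicates 1 to 3 and 4.40, 4.03 and 4.33 on C/EBPbeta-2 replicates 1 to 3 at probe set 205476_at. The C/EBPbeta-2 arrays were all below the array medians and below every control array. Control replicates 1 and 2 were well above that level and control replicate 3 was close to it. The means were 6.25 ± 1.35 in control and 4.26 ± 0.20 with C/EBPbeta-2 (SD, n = 3). The log2 difference was -1.99 (SE 0.63, 95% interval -3.50 to -0.48), 3.97-fold lower, with a limma adjusted p of 0.896 over all probe sets and 0.623 over all genes. Leaving out control replicate 3 made it -2.76, and leaving out control replicate 2 made it -1.47. Because the C/EBPbeta-2 values had no stated background, the fold is uncertain.

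CXCL16, a membrane-bound chemokine whose ectodomain is shed by ADAM proteases and which binds CXCR6, read 5.34, 5.86 and 5.48 on control replicates 1 to 3. With C/EBPbeta-2 it read 5.198, 4.83 and 4.83 on replicates 1 to 3. The groups did not overlap, but C/EBPbeta-2 replicate 1 was near control replicate 1. The log2 difference was -0.61 (SE 0.20, 95% interval -1.09 to -0.12, limma adjusted p = 0.972), and it stayed between -0.73 and -0.46 with any 1 array left out.

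CCL28 was read at 3 probe sets. The brightest, 224240_s_at, read 5.40, 5.51 and 5.56 on the control arrays and 5.26, 5.18 and 5.07 on the C/EBPbeta-2 arrays, a difference of -0.32 (SE 0.14, limma adjusted p = 1.00). The probe set 238750_at read 4.70, 4.80 and 4.81 on control and 4.16, 4.47 and 4.12 with C/EBPbeta-2, a difference of -0.52 (SE 0.16, limma adjusted p = 0.845). Both had every C/EBPbeta-2 array below every control array, with narrow spreads in each group. The third, 224027_at, read 2.77 to 3.42 over all 6 arrays and overlapped between groups.

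CXCL14, made constitutively by many epithelia, was read at 3 probe sets, and their levels lay between 3.40 and 4.54. For 218002_s_at the control arrays read 3.50, 3.51 and 3.40 and the C/EBPbeta-2 arrays 3.61, 3.74 and 4.03. This was the member probe set with every C/EBPbeta-2 array above every control array, a difference of 0.32 (SE 0.17, limma adjusted p = 1.00) at a level below the array medians. The other 2 CXCL14 probe sets overlapped between groups and differed by 0.15 and -0.08.

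The spread among control arrays was shared by several members. Control replicate 3 was the lowest control array for CXCL1, CCL20, the brightest CXCL2 probe set and both CXCL8 probe sets. In all it was the lowest for 10 of the 19 probe sets, some of them dim, such as that of CXCL6. Control replicate 1 was the lowest for 5 and control replicate 2 for 4. This count was not made over all probe sets, so the order may not be particular to the chemokines. Control replicate 3 was not the lowest for CXCL3, CXCL16 or CCL28 at their brightest probe sets. The C/EBPbeta-2 arrays had a smaller SD than the control arrays for CXCL1 (0.26 against 1.01), CCL20 (0.20 against 1.35) and CXCL8 202859_x_at (0.14 against 1.28). The reverse held for other members, such as CXCL2 230101_at (0.48 against 0.03) and CCL28 238750_at (0.19 against 0.06). SDs were not compared over all probe sets.

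**Figure D3:**
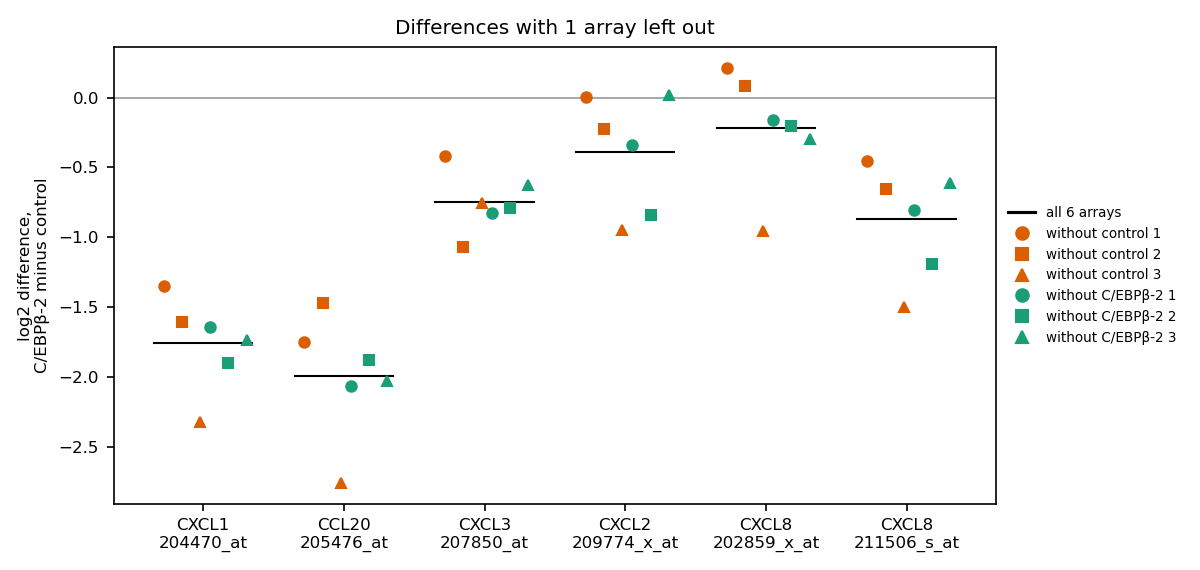
Log2 difference, C/EBPbeta-2 minus control (y axis), for 6 chemokine probe sets (x axis), with all 6 arrays (black line) and with 1 array left out (points; colour gives the group and shape the replicate of the array left out). CXCL1 and CCL20 stay below 0 throughout, from -2.32 to -1.35 and from -2.76 to -1.47, while CXCL2 209774_x_at and CXCL8 202859_x_at cross 0.

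Technical values of the arrays also varied within groups. The mean log2 level of poly-A spike-in RNA was low on 2 arrays, 3.85 for the second C/EBPbeta-2 replicate and 3.98 for the first control, and 7.21 to 8.25 on the other 4. Between the 2 arrays of low spike-in level CXCL1 differed by -2.30 and CCL20 by -2.70, and among the 4 of high level by -1.49 and -1.64. CXCL8 202859_x_at differed by -1.13 at the low level and 0.23 at the high one. The mean log2 level of the 18S ribosomal RNA control probe sets varied as well. It was 12.19, 5.62 and 10.09 on C/EBPbeta-2 replicates 1 to 3 and 8.05, 12.17 and 10.33 on control replicates 1 to 3. Its bearing on the chemokine values was not tested. CEBPB, at 212501_at, read 11.27, 11.38 and 11.37 on control replicates 1 to 3 and 10.29, 10.50 and 11.38 on C/EBPbeta-2 replicates 1 to 3 (difference -0.62, limma adjusted p = 1.00). It was -0.95 without C/EBPbeta-2 replicate 3 and -0.40 without C/EBPbeta-2 replicate 1. The labels could therefore not be checked by this gene, and whether its probes reach an introduced sequence was not tested.

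Epithelial markers listed for MCF10A, not all of them specific to basal cells, were bright. KRT5 read 12.38 to 12.93, EPCAM 8.39 to 9.38 and ITGB4 8.40 to 10.49 over all arrays. KRT14 and CDH1 fell with C/EBPbeta-2, 2 of 5 measured markers (background for lower genes 0.167%). KRT14 differed by -3.00 (limma adjusted p = 0.0347 over all genes, 0.0648 over all probe sets) and CDH1 by -2.14 (limma adjusted p = 0.0282 and 0.0504). The KRT14 call was lost in 8 of 16 alternatives (adjusted p 0.0120 to 0.219) and the CDH1 call in 9 of 15 (0.0109 to 0.194). Among those were the replicate block for both, every fit with 1 array left out for CDH1, and each such fit for KRT14 except the one without C/EBPbeta-2 replicate 2 (differences -3.36 to -2.70 for KRT14 and -2.28 to -1.94 for CDH1). The replicate block called 0 of all genes. The bulk arrays cannot tell fewer cells of a type from less RNA per cell. Of 8 measured leukocyte markers 0 were called. PTPRC, the pan-leukocyte marker, read 3.11 to 3.63, below every array median, while CSF3R at 4.83 to 5.41 and CD14 at 5.98 to 7.28 lay above every one. The summed intensity of the list was 235 to 288 with C/EBPbeta-2 and 181 to 193 in control, with CD14 (difference 0.92, limma adjusted p = 0.260 over all genes) the marker that differed most. The other leukocyte markers differed by -0.06 (CD3E) to 0.29 (ITGAM), and the sum without CD14 was not computed. Of 9 measured fibroblast and endothelial markers 0 were called, with a summed intensity of 344 to 534 with C/EBPbeta-2 and 724 to 3691 in control. DCN, the matrix proteoglycan decorin, read 11.76, 9.73 and 8.98 on control replicates 1 to 3 and 7.11 to 8.16 with C/EBPbeta-2. Its log2 difference of -2.61 (limma adjusted p = 0.445 over all genes) was -1.81 without control replicate 1 and -1.31 as the mean of its probe sets. Without DCN the sums were 206 to 247 and 218 to 272. LUM and CDH5 lay below every array median, while COL1A1 at 6.58 to 6.91 and PECAM1 at 5.23 to 5.87 lay above every one. Of 7 luminal and milk-producing markers 0 were called. KRT18 at 11.27 to 11.87, GATA3 at 7.49 to 8.84 and ESR1 at 5.24 to 6.14 lay above every array median. KRT19, PGR, CSN2 and LALBA lay below every one. The part of these markers in the lower CXCL1 and CCL20 values was not tested.

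Of 22 measured cytokine inducers of these chemokines and their receptors, IL1B and the decoy receptor IL1R2 rose, 0 fell and 20 were not called (background for higher genes 0.0961%). An unadjusted p under 0.05 in limma was reached by 5 of the 22, against 5.4% of all genes. IL1B read 5.81, 5.82 and 6.07 on control replicates 1 to 3 and 10.92, 10.69 and 11.10 on C/EBPbeta-2 replicates 1 to 3, with no overlap. IL1R2, which binds interleukin-1 without signalling, read 4.25 to 5.04 on control and 11.94 to 13.48 with C/EBPbeta-2. With the replicate number as a block both missed the call (limma adjusted p = 0.0628 each, where the range over alternatives began at 0.000253 for IL1B and 0.000360 for IL1R2). In that fit 0 of all genes were called, so the loss is not particular to these 2 genes.

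The receptor antagonist IL1RN read 7.61, 6.42 and 6.80 on control replicates 1 to 3 and 3.77, 4.60 and 4.18 on C/EBPbeta-2 replicates 1 to 3, again with no overlap. Its difference of -2.76 (SE 0.36) just missed the call (limma adjusted p = 0.0556 over all genes) and passed in 5 of 16 alternatives (0.0185 to 1.00). This value came from the _s_at probe set 212657_s_at, and it was -0.85 as the mean of the gene's probe sets and -0.10 with _x_at and _s_at probe sets left out. IL1A, a cell-associated interleukin-1 ligand, read 8.47 to 8.88 on control and 9.24 to 9.64 with C/EBPbeta-2, with no overlap. Its difference of 0.71 was not called (limma adjusted p = 0.412 over all genes). TNF, which read 3.99 to 4.40 on all arrays, differed by 0.10. The interleukin-1 genes were already known to differ on these arrays, so their values are no separate support.

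**Figure D4:**
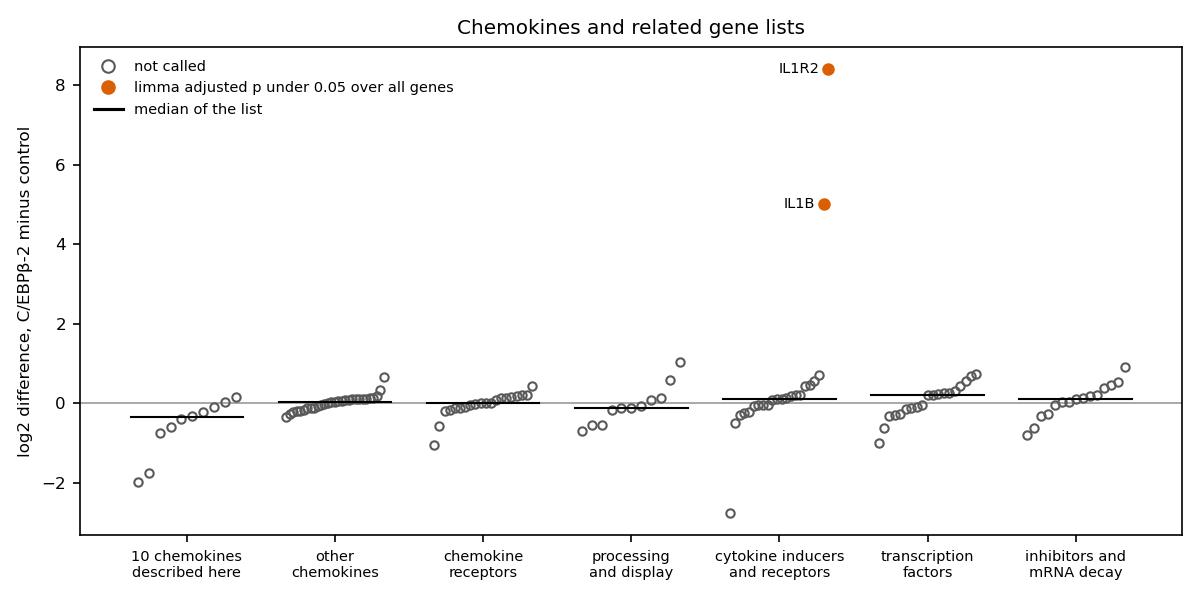
Log2 difference, C/EBPbeta-2 minus control (y axis), of each measured gene at its brightest probe set, for the 10 chemokines and 6 related lists (x axis); open circles were not called, filled circles had a limma adjusted p under 0.05 over all genes, and black lines are list medians. IL1R2 (8.40) and IL1B (5.01) are the called genes, and CCL20 and CXCL1 are the lowest of the 10 chemokines.

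The remaining chemokines showed no called gene. Of 29 measured genes outside the set 0 passed in limma, 1 reached an unadjusted p under 0.05 (5.4% of all genes did), and the list's median difference was 0.03. That gene was PPBP, a platelet chemokine in the same run on chromosome 4, which read 3.59 to 4.10 with C/EBPbeta-2 and 2.96 to 3.51 in control, a difference of 0.66 below the array medians. It was 0.27 with a pseudocount of 16. PF4 differed by -0.35, which shrank to -0.03 without control replicate 1, and CCL7 by 0.33, which shrank to 0.075 without C/EBPbeta-2 replicate 1. CCL2, a monocyte attractant that interleukin-1 induces in many cells, read 2.58 to 3.10 on all arrays.

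Of 20 measured chemokine receptors 0 passed in limma, and 1 reached an unadjusted p under 0.05 (5.4% of all genes did). The receptors' median difference was -0.002. Of the receptors of ELR chemokines, CXCR1 read 5.56 to 6.18, above every array median, and CXCR2 read 2.57 to 3.24, below every one. CCR6, the receptor of CCL20, read 2.69 to 3.05, also below every one. CXCR6, the receptor of CXCL16, read 4.54 to 5.20, and CCR10, a receptor of CCL28, 3.21 to 4.50. None of these 5 receptors was called, and their differences lay between -0.11 and 0.08. ACKR1, an atypical receptor that binds many chemokines without signalling, read 6.34, 5.26 and 4.63 on control replicates 1 to 3 and 4.68, 4.32 and 4.08 on C/EBPbeta-2 replicates 1 to 3. Its groups overlapped and it differed by -1.05 (limma adjusted p = 0.910 over all genes), or -0.59 without control replicate 1. CXCR4 differed by -0.58, or -0.26 without control replicate 1. ACKR3 differed by 0.43 and changed sign to -0.38 without C/EBPbeta-2 replicate 2.

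Among 11 genes of chemokine processing and display 0 passed in limma, where 0.263% of all genes did. An unadjusted p under 0.05 was reached by 2 of the 11, against 5.4% of all genes. SDC1, a heparan sulphate proteoglycan that holds chemokines at the cell surface, read 10.31 to 10.98 on control and 11.33 to 12.12 with C/EBPbeta-2 (difference 1.03, limma adjusted p = 0.412 over all genes). SDC4 differed by 0.58, with 0.19 without C/EBPbeta-2 replicate 3 and 1.03 without C/EBPbeta-2 replicate 2. The gelatinase MMP2 differed by -0.69, and by -0.24 as the mean of its probe sets. ADAM10 and ADAM17, which shed CXCL16, differed by -0.06 and 0.07.

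Of 19 transcription factors of chemokine promoters 0 passed in limma, and 2 reached an unadjusted p under 0.05 (5.4% of all genes did). Their median difference was 0.20, against 0.01 over all genes. The NF-kappaB subunits RELA and NFKB1 differed by 0.25 and 0.20. The ETS factor ELF3 differed by -0.999, FOSL1 by 0.73 and JUN, both AP-1 subunits, by 0.69. Leaving out control replicate 1 gave 0.47 for FOSL1, leaving out control replicate 2 gave 1.12, and JUN was 0.44 with _x_at and _s_at probe sets left out. Of 15 inhibitors and mRNA decay factors 0 passed in limma, with a median of 0.10. Against 5.4% of all genes, 3 of the 15 reached an unadjusted p under 0.05. They were the decay factor ZFP36L1 (0.91), the NF-kappaB inhibitor NFKBIA (-0.62) and FKBP5, a glucocorticoid-induced gene (-0.80, limma adjusted p = 0.226 over all genes). Averaged over their probe sets, ZFP36L1 was 0.49 and FKBP5 -1.29, and NFKBIA was -0.31 with _x_at and _s_at probe sets left out. ZFP36L1 was 0.58 without C/EBPbeta-2 replicate 3. FKBP5 read 11.97 to 12.40 on control and 11.36 to 11.50 with C/EBPbeta-2, with no overlap.

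The genes whose values over the 6 arrays most resembled those of CCL20, the member with the largest difference, were ranked by Pearson's r among 12667 genes at or above the median level. RAP1GAP (r = 0.995), PLA2G6 (r = 0.989) and MROH8 (r = 0.986) ranked highest, though they differed by only -0.26, -0.24 and -0.13. CXCL1 ranked 25 (r = 0.934), and of the other members measured at that level CXCL16 (rank 283) came next. The points share 6 arrays and a split into 2 groups, so these values describe a shape and no test was made.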

How the data were processed

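Total RNA (1.5 µg per sample) was reverse transcribed from an oligo-dT primer and labelled with biotin for Affymetrix arrays, per the labels' protocols. The deposited intensities are on a linear scale, up to 17825, with 1 value for a probe set on each array. RMA is named in the submitters' processing notes; its version and settings are not given in the sources used here. Log2 of these values was taken, without a pseudocount. Of 54675 probe sets, 62 control probe sets were set aside. A gene was read at its brightest probe set by the mean of all 6 arrays.

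C/EBPbeta-2 minus control was fitted with limma 3.58.1 in R 4.3.3 (lmFit and eBayes, no covariate, two-sided), with Benjamini-Hochberg adjustment over 54613 probe sets or 19775 genes, called under 0.05, and tested on simulated data. The number of arrays limits the precision. Python 3.11.15 with pandas 2.3.3 and matplotlib 3.10.9 made summaries and plots. Named genes were all 10 members, CEBPB, and, of each of the 6 related gene lists (not the marker lists), the called genes and the 3 with the largest difference. Marker genes and others, such as CCL2, the members' receptors, ADAM10, ADAM17, RELA, NFKB1, IL1A and TNF, were chosen after their values were seen. Listed genes that share their probe sets, or have none, were not used here. The members, lists and alternatives were chosen with earlier results of these data known.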

Additional observations from a re-analysis of the deposited data

How the results depend on the processing

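None of the 19 chemokine probe sets was called under any of the 16 alternatives that apply to them (smallest limma adjusted p 0.189, CCL20 without control replicate 3). Leaving out 1 array gave -2.76 to -1.47 for CCL20 and -2.32 to -1.35 for CXCL1. In 11 probe sets the sign held in every fit with a test, and 8 changed it. Without a test, the sign also changed within a spike-in level for CXCL2 1569203_at (-0.23 at the low level) and CXCL5 215101_s_at (-0.001 at the high level). With 1 array left out, those 8 ranged from -0.96 to 0.21 (CXCL8 202859_x_at), -0.95 to 0.016 (CXCL2 209774_x_at), -0.061 to 0.38 (CXCL2 230101_at), -0.29 to 0.031 (CCL28 224027_at), -0.18 to 0.052 (CXCL14 237038_at), -0.25 to 0.006 (CXCL5 214974_x_at), -0.012 to 0.12 (CXCL5 207852_at) and -0.059 to 0.11 (CXCL6). Array weights turned CXCL8 202859_x_at to 0.25 and CXCL14 237038_at to 0.075. ACKR3 ranged from -0.38 to 1.32.

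Leaving out 1 array gave 5 to 37 called probe sets (36 with all arrays) and 7 to 57 called genes (52 with all arrays), with fewer samples in each fit. Called probe sets and genes numbered 17 and 17 with a pseudocount of 16, 122 and 122 with array weights, and 92 and 92 at an adjusted p under 0.1. Probe sets numbered 78 without dim probe sets and 67 with a trended, robust prior. With the replicate block, limma called 0 probe sets, 0 genes and 0 genes of the related lists, against 2 of the lists without it. The numbers only name the arrays. Same-numbered arrays' deviations from their group means correlated at -0.453, -0.553 and 0.42, and 2 of 6 arrays correlated best with their own number. The highest values were between differently numbered arrays. They were 0.659 for C/EBPbeta-2 replicate 2 with control replicate 1, and 0.637 for C/EBPbeta-2 replicate 1 with control replicate 2. The labels do not pair these arrays, and no fit paired them. No detection calls were used, which limits what dim probe sets show.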
